A study of Mus musculus with 9 samples.

Results

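Marker genes of the projection neurons of the cerebral cortex, 9 in all, were followed across messenger RNA libraries of the mouse nucleus accumbens: Neurod1, Neurod2, Neurod6, Tbr1, Emx2, Fezf2, Nrgn, Mef2c and Cux2. They were taken by name, and all 9 were found among the 21423 genes of the deposited table. The mice were adult male C57BL/6 animals aged 2 to 5 months. They were injected intraperitoneally every day for 7 days, the controls with saline at 10 ml/kg and the others with cocaine. The cocaine dose was 10 or 20 mg/kg, with none tied to a sample in the labels. Tissue was taken 24 h after the final injection for saline and cocaine. For withdrawal it was taken after 8 further days without drug, spent in the home cage. Punches of nucleus accumbens from 8 mice were pooled per group, so that a group is 1 pool, 1 library and 3 sequencing lanes. Each treatment was therefore measured in 1 library, no difference had a replicate check, and treatment, pool and dissection cannot be told apart. Library totals were 26006605 reads for saline, 24219333 for cocaine and 19452882 for withdrawal.

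The cerebral cortex lies close to the nucleus accumbens, and its excitatory neurons use glutamate, while most neurons of the accumbens are medium spiny neurons that use GABA. Neurod1, Neurod2 and Neurod6 are basic helix-loop-helix transcription factors that bind E-boxes in DNA and drive the maturation of excitatory neurons. Tbr1 and Fezf2 set the identity of deep-layer cortical neurons, Emx2 patterns the developing cortex, and Cux2 marks upper layers. Nrgn encodes neurogranin, a postsynaptic protein that binds calmodulin, and Mef2c encodes a transcription factor of activity-dependent synapse regulation. Nrgn and Mef2c are also made in the striatum, so they mark cortex less strictly than the NeuroD genes.

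NeuroD proteins bind E-boxes, so the 250 bases before the annotated starts are shown for Neurod2 and Neurod6, whose lanes after cocaine were all below saline, and for Nrgn and Fezf2, the markers called below. They run 5′ to 3′ on the strand of the gene, from RefSeq (GRCm38.p6, another build than the mm9 of the expression files). Capitals mark the E-box letters CANNTG, a palindrome, so that both strands read alike.
Neurod2 (chr11:98329646-98329895, minus strand): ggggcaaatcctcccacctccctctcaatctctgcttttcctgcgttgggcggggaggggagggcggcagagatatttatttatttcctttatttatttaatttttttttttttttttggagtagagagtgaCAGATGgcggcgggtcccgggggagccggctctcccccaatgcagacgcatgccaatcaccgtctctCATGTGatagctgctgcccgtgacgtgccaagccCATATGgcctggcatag
Neurod6 (chr6:55681264-55681513, minus strand): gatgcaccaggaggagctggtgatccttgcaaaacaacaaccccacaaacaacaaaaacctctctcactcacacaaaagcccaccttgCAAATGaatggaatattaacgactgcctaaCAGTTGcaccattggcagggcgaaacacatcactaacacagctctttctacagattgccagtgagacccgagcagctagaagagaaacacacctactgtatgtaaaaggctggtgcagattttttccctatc
Nrgn (chr9:37552746-37552995, minus strand): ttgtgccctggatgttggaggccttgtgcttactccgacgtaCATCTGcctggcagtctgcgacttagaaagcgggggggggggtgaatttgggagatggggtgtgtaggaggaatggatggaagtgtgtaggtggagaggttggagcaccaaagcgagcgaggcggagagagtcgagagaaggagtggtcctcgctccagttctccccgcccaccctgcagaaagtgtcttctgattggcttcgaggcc
Fezf2 (chr14:12345866-12346115, minus strand): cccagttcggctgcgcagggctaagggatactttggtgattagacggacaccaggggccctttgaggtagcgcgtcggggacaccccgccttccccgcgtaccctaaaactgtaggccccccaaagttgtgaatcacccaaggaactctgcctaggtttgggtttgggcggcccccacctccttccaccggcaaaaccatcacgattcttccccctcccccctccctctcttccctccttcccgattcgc
The window of Neurod2 held 3 matches, that of Neurod6 held 2 and that of Nrgn 1, while Fezf2 and Emx2 held 0. CANNTG stood in 66.0% of the windows of 27025 genes, with a median of 1 match per window, so such matches are common. The more specific letters CAGATG (or CATCTG on the other strand), which are a form of CANNTG, stood in 14.5% of windows, among them those of Neurod2 and Nrgn. They also stood in window 2 of the 2 windows of Cux2, the marker that was higher, and in window 3 of the 3 of Mef2c. CATATG, the other form searched, stood in 3.47% of windows. It was found in those of Neurod1 and Neurod2 and in window 1 of Mef2c. No expression value tests these letters, and they are given as a description of the loci.

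Levels are RPKM, reads per kilobase of gene model scaled to sequencing depth, as made by the authors, and can be compared between genes because they are per length. Nrgn had the highest level of the 9 genes, with a mean of 128 RPKM over the 9 lanes, at the 97.8 percentile of all genes in the table. Mef2c followed at 19.3 RPKM and Cux2 at 8.63 RPKM. Tbr1 averaged 2.20 RPKM, and Emx2 and Fezf2 averaged 1.31 and 1.23 RPKM. The NeuroD genes had the lowest means, at 0.499 RPKM for Neurod2, 0.409 RPKM for Neurod1 and 0.261 RPKM for Neurod6. In the saline library the lanes of Emx2 overlapped those of Fezf2 and Neurod2, and those of Neurod1 overlapped those of Neurod6, so these neighbours could not be put in order there. In cocaine and withdrawal the 3 NeuroD genes overlapped each other, as did Emx2 and Fezf2, Neurod1 overlapped Fezf2 in cocaine, and Tbr1 overlapped Emx2 in withdrawal. Means of 18 medium spiny neuron genes in the same lanes ran from 10.2 RPKM for Isl1 to 877 RPKM for Penk, the enkephalin precursor. Ppp1r1b, which encodes DARPP-32, averaged 514 RPKM. Nrgn and Mef2c lay within this range, and the other cortical markers lay below it. The labelled tissue thus carried its defining markers, and 6 of the 9 cortical genes averaged under 3 RPKM.

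**Figure D1:**
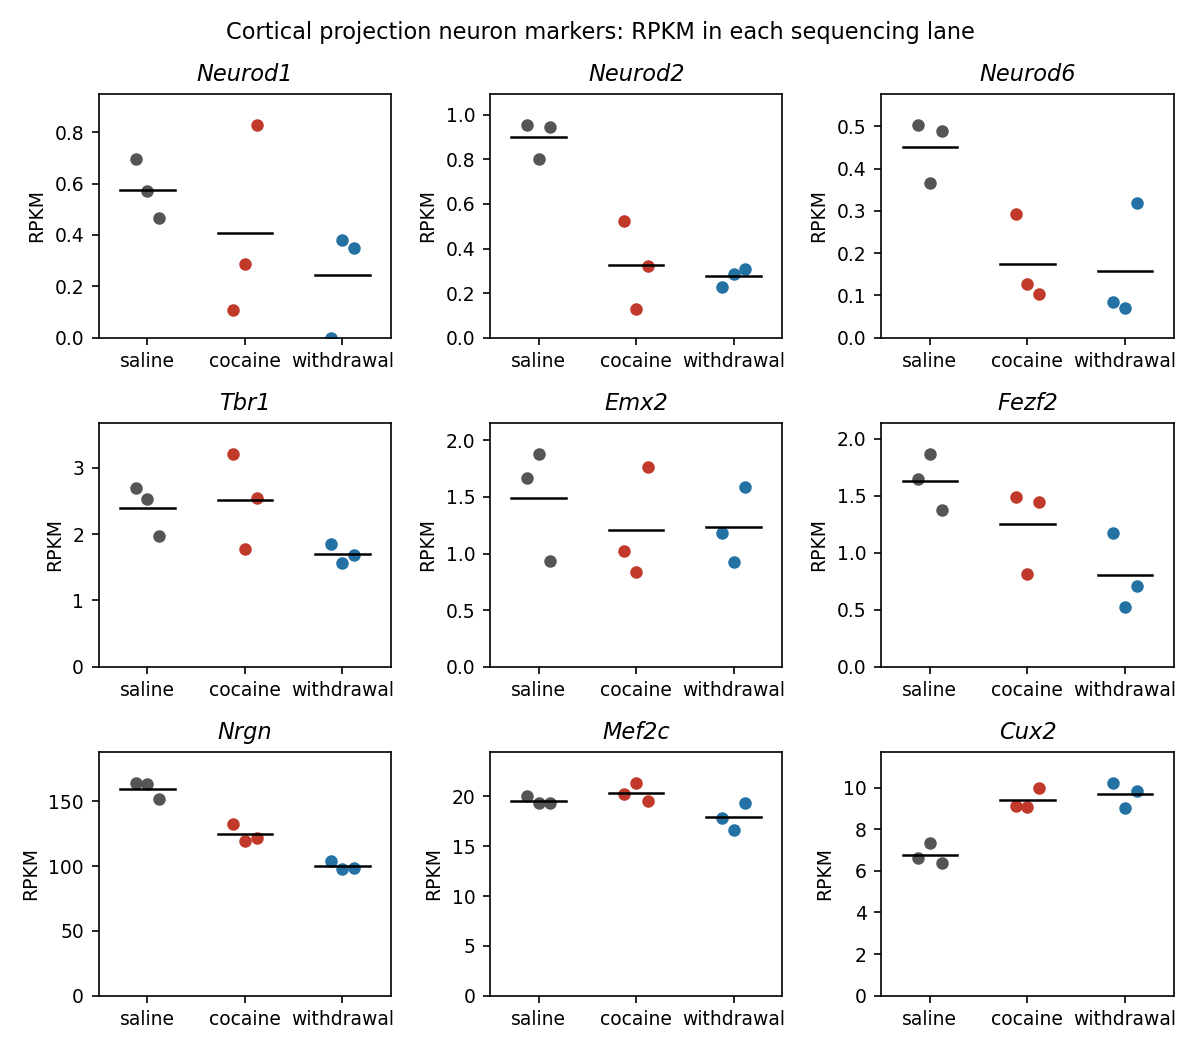
RPKM (vertical axes, each from 0) of the 9 cortical marker genes in each sequencing lane (points) of the saline, cocaine and withdrawal libraries, with the mean of the 3 lanes as a line. The saline lanes of Neurod2, Neurod6 and Nrgn lie above all lanes of the other libraries, and those of Cux2 lie below them.

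Differences are means of log2(RPKM + 0.5) over lanes, with the standard error from lanes, which covers sequencing only, and the added 0.5 understates changes of low genes. A lower limit of 1 RPKM on the average of the 9 lanes left 14051 genes to test, among them 6 of the 9 markers. The other 3 markers, all NeuroD genes, were under this limit. A call needed a difference of 1.5 times or more between 2 libraries whose lanes did not overlap.

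Neurod2, which acts in postmitotic excitatory neurons, had 0.953, 0.801 and 0.944 RPKM in the saline lanes, 0.521, 0.130 and 0.321 in the cocaine lanes and 0.230, 0.288 and 0.306 in the withdrawal lanes. All 6 lanes after cocaine were below all 3 saline lanes, and the cocaine and withdrawal lanes overlapped. The merged values were 0.913 RPKM in saline, 0.329 in cocaine and 0.278 in withdrawal, or 2.78 times and 3.28 times lower than in saline. These levels rest on 74.6, 25 and 17 reads (numbers recovered from the files, which step in fractions of 1/37 of a read). Neurod2 would meet the size and lane rule without the filter, with differences of -0.79 ± 0.21 and -0.85 ± 0.068. Of the 3313 genes between 0.2 and 1 RPKM, 3.11% were lower by that rule in cocaine and 3.8% in withdrawal, and of all 21423 genes without the filter 2.11% and 2.87%.

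Neurod6, a factor of the same family found in cortical pyramidal neurons, had 0.502, 0.365 and 0.488 RPKM in the saline lanes. The cocaine lanes gave 0.293, 0.126 and 0.104 RPKM and the withdrawal lanes 0.0837, 0.0700 and 0.319 RPKM. Again no lane of cocaine or withdrawal reached the saline lanes, but the highest withdrawal lane came close to the lowest saline lane. The libraries held 26, 9 and 7 reads of Neurod6, and its differences from saline, -0.50 ± 0.14 in cocaine and -0.55 ± 0.18 in withdrawal, were under 1.5 times on this scale. With a pseudocount of 0.1 and no filter, an alternative chosen after seeing the data, they were -1.06 and -1.22 and met the rule, as those of Neurod2 did (-1.35 and -1.42).

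Neurod1, which promotes neuronal differentiation and is also active in granule cells and endocrine cells, varied more between lanes. It had 0.695, 0.570 and 0.465 RPKM in saline, 0.106, 0.287 and 0.827 in cocaine and 0, 0.381 and 0.348 in withdrawal. The cocaine lanes lay on both sides of the saline lanes, whereas the withdrawal lanes lay below them. The withdrawal lane at 0 had no read of Neurod1, which allows up to 0.228 RPKM (3 reads, counting error only, if the mates of a pair were not both counted). The difference between withdrawal and saline was -0.57 ± 0.28, under 1.5 times, from 36.8 reads in saline and 12 in withdrawal; with the pseudocount of 0.1 and no filter it was -1.27 and met the rule. That alternative calls 5.01% and 6.28% of genes between 0.2 and 1 RPKM lower in cocaine and in withdrawal, and 3.06% and 4.14% of all genes.

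Among the deep-layer factors, Fezf2, which specifies neurons that project below the cortex, had 1.65, 1.86 and 1.37 RPKM in the saline lanes. It had 1.49, 0.817 and 1.44 RPKM in the cocaine lanes and 1.17, 0.523 and 0.705 RPKM in the withdrawal lanes. The cocaine lanes overlapped those of saline, and the withdrawal lanes lay below all of them. Fezf2 fell in withdrawal against saline by 0.74 on the log2 scale (lane standard error 0.23), from 97.1 reads to 34.8. The call ended without withdrawal replicate 2 (-0.58), with a pseudocount of 1 (-0.56) and when differences were centred on genes of the same length (-0.54).

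Tbr1, a T-box factor of layer 6 neurons, had 2.70, 2.52 and 1.97 RPKM in saline and 3.20, 1.78 and 2.55 RPKM in cocaine. The withdrawal lanes were at 1.85, 1.57 and 1.68 RPKM. Saline and cocaine overlapped, with a difference of 0.036 ± 0.23, and the withdrawal lanes stood just below the lowest saline lane (-0.39 ± 0.13), without a call. The sign in cocaine turned with length centring (-0.015), without saline replicate 3 (-0.076) and without cocaine replicate 1 (-0.13), so no direction can be given for Tbr1 there.

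Emx2, a homeobox gene of the cortical primordium, had 1.66, 1.88 and 0.938 RPKM in saline, 1.02, 0.838 and 1.76 in cocaine and 1.18, 0.928 and 1.59 in withdrawal. The lanes of all 3 libraries overlapped, and the differences from saline were -0.23 ± 0.32 and -0.19 ± 0.27. An antisense gene, Emx2os, is listed at 0.766, 0.601 and 0.780 RPKM in the merged values of saline, cocaine and withdrawal. The protocol in the labels names no step that keeps strand, so reads of the antisense pair cannot be told apart and the level of Emx2 is uncertain.

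Nrgn had 164, 163 and 152 RPKM in the saline lanes, 133, 120 and 121 in the cocaine lanes and 104, 98.1 and 98.5 in the withdrawal lanes. The 3 libraries did not overlap in any pair and were ordered saline, cocaine, withdrawal. Its mean was 160 ± 6.9 RPKM in saline, 125 ± 7.0 in cocaine and 100.3 ± 3.5 in withdrawal (SD, n = 3 lanes). Neurogranin RNA fell in withdrawal against saline by 0.67 on the log2 scale (lane standard error 0.046), a call that ended against genes of its length (-0.36). It differed by -0.36 ± 0.059 between cocaine and saline and by -0.31 ± 0.054 between withdrawal and cocaine, without a call. It rests on 5388, 3899 and 2516 reads, the most of the 9 markers in saline and cocaine, while Mef2c had more in withdrawal (2667).

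Mef2c was level between saline and cocaine, at 20.1, 19.3 and 19.3 RPKM against 20.3, 21.3 and 19.6. In withdrawal its lanes were at 17.8, 16.7 and 19.3 RPKM, and its differences from saline were 0.057 ± 0.039 in cocaine and -0.12 ± 0.062 in withdrawal, with overlapping lanes in both cases. Cux2 was higher after cocaine. It had 6.61, 7.36 and 6.38 RPKM in saline, 9.14, 9.09 and 9.97 in cocaine and 10.2, 9.01 and 9.84 in withdrawal. Every lane after cocaine was above every saline lane, by 0.44 ± 0.071 in cocaine and 0.48 ± 0.077 in withdrawal, or 1.40 and 1.44 times in the merged values, under the limit for a call.

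**Figure D2:**
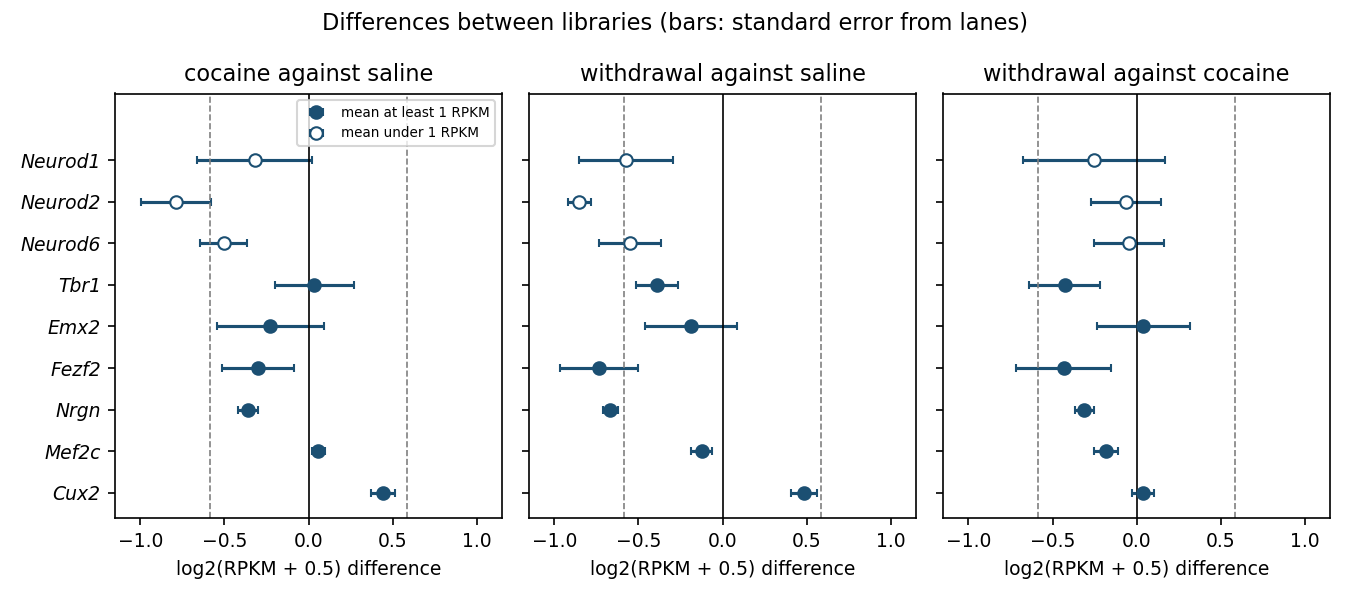
Difference in log2(RPKM + 0.5) between libraries (horizontal axes) for the 9 marker genes, with bars for the standard error from lanes; dashed lines mark 1.5 times and open points are genes with a mean under 1 RPKM. Cux2 lies at 0.44 and 0.48 against saline, and Neurod2 at -0.79 and -0.85.

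Counted together for cocaine against saline, 0 of the 6 tested markers were called, where the rule called 2.93% of all tested genes higher and 2.41% lower. The limma test, which compares these libraries and not the treatments, called 2 of the 6, Nrgn lower (adjusted p = 0.00083) and Cux2 higher (adjusted p = 0.0058), and called 10.2% of all tested genes higher and 14.4% lower. The median of the 6 differences was -0.096, beside -0.047 for all tested genes. Over all 9 markers, with the 3 NeuroD genes under the filter, it was -0.30, with 6 negative and 3 positive. Of all 14051 tested genes, 7937 were negative and 6114 positive. Of tested genes of 2123 to 2394 bp, the length class of Neurod1, Neurod6 and Fezf2, 74.9% were negative. Of the 9, 3 had saline lanes above all cocaine lanes (Neurod2, Neurod6 and Nrgn) and 1 had them below (Cux2), and among tested genes 23.9% and 18.3% did so. Of genes at 0.2 to 1 RPKM, the range of the NeuroD genes, 6.58% had all cocaine lanes below saline. With the median difference of all tested genes set to 0, calls moved from 411 higher and 338 lower to 505 and 230, and for withdrawal against saline from 557 and 473 to 729 and 309.

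For withdrawal against saline, 2 of the 6 tested markers were called, both lower (Fezf2 and Nrgn), where the rule called 3.37% of all tested genes lower and 3.96% higher. Without withdrawal replicate 2 only Nrgn was called. The limma test called Fezf2 (adjusted p = 0.046), Nrgn (adjusted p = 1.9e-05) and Cux2, which was higher (adjusted p = 0.0028), beside 18.2% of tested genes lower and 12% higher. With length centring neither was called. The median of the 6 was -0.29, beside -0.056 for all tested genes, and over all 9 markers it was -0.55, with 8 negative and 1 positive. Of all 14051 tested genes, 7957 were negative and 6094 positive. Of tested genes of 2123 to 2394 bp, the length class of Neurod1, Neurod6 and Fezf2, 75.6% were negative. Among the 9 markers, 6 had all withdrawal lanes below the saline lanes (Neurod1, Neurod2, Neurod6, Tbr1, Fezf2 and Nrgn) and Cux2 had them above, where 25.6% and 18.6% of tested genes did so. The 3 NeuroD genes among the 6 are not tested genes, and 7.4% of genes at 0.2 to 1 RPKM had all withdrawal lanes below saline. Both comparisons use the same saline library, so they are not independent of each other.

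Between withdrawal and cocaine, 0 of the 6 tested markers were called, and the rule called 0.548% of all tested genes lower and 0.47% higher. The median of the 6 was -0.25, beside -0.0074 for all tested genes, with Tbr1 at -0.43 ± 0.21 and Fezf2 at -0.43 ± 0.28. Without cocaine replicate 2 both were called lower, at -0.61 and -0.63, and without withdrawal replicate 1 Fezf2 was called lower, at -0.63. Leaving out a lane makes the lane condition easier to meet. Lower calls among all tested genes rose from 77 to 143 without cocaine replicate 2 and to 128 without withdrawal replicate 1. The limma test called only Nrgn (adjusted p = 0.039), beside 0.185% of tested genes called lower and 0.185% higher. Nrgn and Mef2c were the 2 markers with all withdrawal lanes below the cocaine lanes (9.42% of tested genes), and 0 markers had them above (8.66%).

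Differences from saline varied with gene length across the whole table, and the markers differ in length, so each was set beside genes as long as itself. Gene model lengths were recovered from the files, 1293 bp for Nrgn, 2304 bp for Fezf2, 3142 bp for Neurod2 and 8034 bp for Cux2. The 706 tested genes of 1197 to 1532 bp, the length class of Nrgn, had a median of -0.27 in cocaine and -0.31 in withdrawal against saline. Relative to them Nrgn was at -0.083 in cocaine and -0.36 in withdrawal, and its call ended. Neurod2 was at -0.69 and -0.75 relative to genes of 2959 to 3250 bp, and Neurod6 at -0.33 and -0.36 relative to its class. Tbr1 in withdrawal was at -0.42 relative to genes of its length. The 703 genes in the class of Cux2 and Mef2c had medians of 0.13 and 0.12. Cux2 was above them by 0.31 in cocaine and 0.36 in withdrawal, and Mef2c turned from 0.057 to -0.077 in cocaine.

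**Figure D3:**
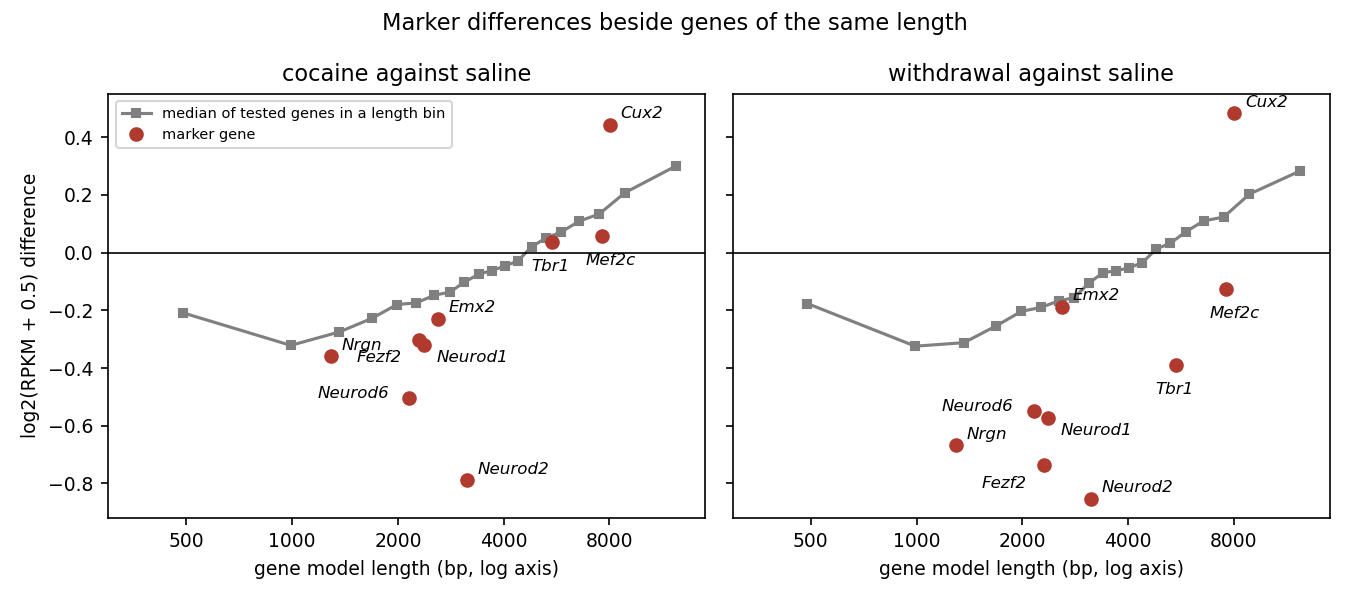
Difference against saline in log2(RPKM + 0.5) (vertical axes) by gene model length in bp (log axis), for the 9 markers (circles) and as the median of tested genes in each of 20 length bins (squares, joined by a line). Nrgn lies near the line in cocaine and 0.36 below it in withdrawal, while Neurod2 lies 0.69 and 0.75 below it.

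A wider list of 36 genes of cortical and other pallial glutamatergic neurons was compared in the same way, of which 31 were tested. Against saline the rule called 2.93% of all tested genes higher and 2.41% lower in cocaine, and 3.96% and 3.37% in withdrawal. Of the 31, 0 were higher and 1 lower in cocaine against saline, and 0 were higher and 2 lower in withdrawal against saline. Slc17a7, the vesicular glutamate transporter VGLUT1, was the call in both: it had 19.4, 18.2 and 17.4 RPKM in saline, 5.83, 5.01 and 5.76 in cocaine and 3.29, 4.34 and 4.26 in withdrawal. It fell by 1.64 in cocaine and fell by 2.08 in withdrawal (lane standard errors 0.078 and 0.12). Slc30a3, the zinc transporter of glutamatergic vesicles, had 3.70, 3.82 and 4.55 RPKM in saline, 1.86, 3.34 and 3.04 in cocaine and 2.41, 1.32 and 1.68 in withdrawal, and fell in withdrawal by 1.00 (0.21). For Slc30a3 all cocaine lanes were below saline, without a call, and the cocaine and withdrawal lanes overlapped.

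Most of the list stayed without a call. In cocaine 10 of the 31 had all lanes above saline and 7 had them below, beside 18.3% and 23.9% of tested genes. In withdrawal 7 had them above and 6 below, beside 18.6% and 25.6%. Otof (0.47 and 0.55) and Mdga1 (0.43 and 0.58) were among those above in both, under the limit for a call. The list medians were -0.027 in cocaine and -0.097 in withdrawal, beside -0.047 and -0.056 for all tested genes, and the sign turned to 0.024 and 0.0085 with length centring. The median in cocaine also turned to 0.034 with 75th percentile scaling and to 0.020 with the median difference of all genes set to 0. Its 4 most abundant genes, which the striatum expresses too, differed from saline by 0.17 in cocaine and 0.32 in withdrawal for Camk2a, -0.31 and -0.29 for Chn1, -0.44 and -0.12 for Crym and -0.43 and -0.33 for Lmo4. Calls in the list depended on single lanes: without cocaine replicate 2 there were 3 in cocaine (Slc17a7, Nr4a2 and Slc30a3). In withdrawal there were 5 without saline replicate 2, 4 without saline replicate 3, 5 without withdrawal replicate 2 and 3 without withdrawal replicate 3, and in each of these Slc17a7 and Slc30a3 were among them. Between withdrawal and cocaine the list had 0 calls, and 1 without cocaine replicate 1, cocaine replicate 2, withdrawal replicate 1 or withdrawal replicate 3 and 2 without withdrawal replicate 2. A left-out lane makes the lane condition easier to meet, and the share of all tested genes called rose too. In cocaine it rose from 5.33% to 6.42% without cocaine replicate 2. In withdrawal it rose from 7.33% to between 8.37% and 9.06%, and between withdrawal and cocaine from 1.02% to between 1.65% and 1.94%.

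**Figure D4:**
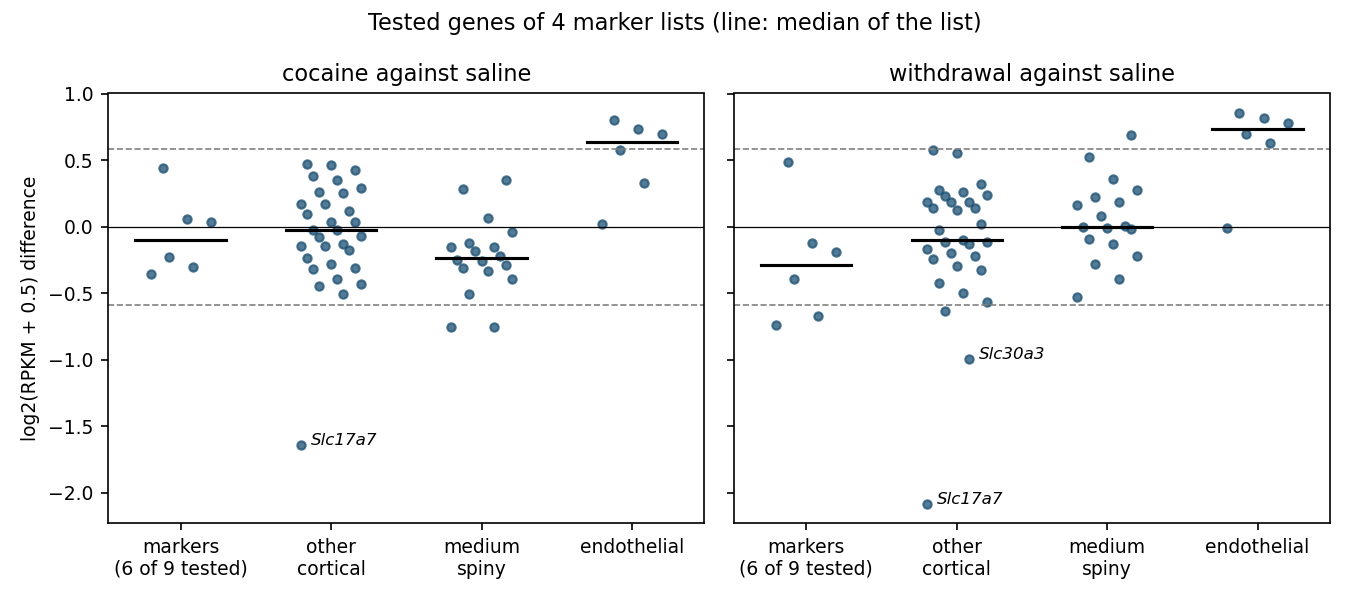
Difference against saline in log2(RPKM + 0.5) (vertical axes) for each tested gene (points) of 4 lists (the markers, other cortical, medium spiny neuron and endothelial genes), with the list median as a line and dashed lines at 1.5 times. Slc17a7 lies at -1.64 and -2.08, while the medians of the other cortical genes are -0.027 and -0.097.

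Relatives of the markers mostly had no call. Of 16 paralogues and relatives 7 were tested, with 0 higher and 1 lower in each comparison against saline and 0 calls between withdrawal and cocaine. Of all tested genes 2.41% were called lower in cocaine and 3.37% in withdrawal against saline. Pcp4, a small protein that like neurogranin binds calmodulin through an IQ motif, was the lower one: its saline lanes ranged from 222 to 263 RPKM, its cocaine lanes from 120 to 133 and its withdrawal lanes from 111 to 135. It fell by 0.94 in both (lane standard errors 0.082 and 0.11). Pcp4 is 641 bp long, and tested genes of 42 to 748 bp had medians of -0.21 and -0.18. Of these genes 10.8% and 9.08% were called lower. Gap43, the growth-associated protein with an IQ motif of the same kind, differed by -0.40 and -0.51 with lanes apart and no call. Tested genes of its length class, 1197 to 1532 bp, had medians of -0.27 and -0.31. The Mef2 paralogues Mef2a (0.19 and 0.27) and Mef2d (0.11 and 0.21) and the Cux2 paralogue Cux1 (0.26 and 0.23) had no call. Neurod4, Neurog1, Neurog2 and Neurog3, the nearest relatives of the NeuroD genes, were under 1 RPKM, as were Emx1, Eomes, Tbx21 and Fezf1.

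Of 10 tested genes around calmodulin, Pcp4 alone was called, and the list medians were -0.21 and -0.25 against saline and -0.054 between withdrawal and cocaine. Of all tested genes 2.41% and 3.37% were called lower against saline. Calm2 had saline lanes from 976 to 997 RPKM, cocaine lanes from 697 to 741 and withdrawal lanes from 642 to 691, with differences from saline of -0.45 and -0.58. Calm3 differed by -0.25 and -0.27, and neither was called. Tested genes in the length class of Calm2, 1197 to 1532 bp, had medians of -0.27 and -0.31. Calmodulin genes have processed copies, so their levels are uncertain.

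Among 7 regulators and partners of Mef2 proteins 6 were tested, and both comparisons against saline had 1 higher and 1 lower. Of all tested genes 2.93% were called higher and 2.41% lower in cocaine, and 3.96% and 3.37% in withdrawal. Hdac4, a deacetylase that represses Mef2 targets, rose by 0.73 ± 0.11 in cocaine and 0.93 ± 0.10 in withdrawal. Nr4a1, an activity-regulated nuclear receptor gene and Mef2 target, fell by 0.63 (0.11) and fell by 1.01 (0.15). Hdac5 (-0.15 and -0.11) and Mapk7 (-0.24 and -0.40), a kinase that activates Mef2 proteins, had no call.

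Across the 9 lanes the tested genes most like Nrgn in log2(RPKM + 0.5) were Scg3 (Pearson r = 0.992), Cpe (0.986) and Trappc4 (0.982). Scg3 and Cpe encode proteins of the secretory granule; Scg3 had 83.6, 69.7 and 59.7 RPKM in saline, cocaine and withdrawal and Cpe had 757, 650 and 575 RPKM. Those most like Fezf2 were 2610101N10Rik (0.962), Sncb (0.951) and Zfp428 (0.936). The lanes share 3 libraries, so these values describe likeness between libraries as well as lanes, and they were picked as the highest of all tested genes.

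The summed level of 6 genes of cortical glutamatergic neurons (Slc17a7, Emx1, Neurod2, Neurod6, Tbr1 and Fezf2), which include Neurod2 and Neurod6 themselves, was 22.7 to 25.5 RPKM over the saline lanes, 7.86 to 11.3 over the cocaine lanes and 6.63 to 7.50 over the withdrawal lanes. Without Slc17a7 the sums were 5.33 to 6.08, 2.85 to 5.51 and 2.45 to 3.34 RPKM, so that saline and cocaine then overlapped. The cocaine lanes of Tbr1, Fezf2 and Emx1 each overlapped their saline lanes. None of the 6 was at 0 in all 9 lanes, and Emx1 was at 0 in 2 cocaine lanes and 2 withdrawal lanes. In these bulk libraries, fewer cells of a type and less RNA per cell cannot be told apart. The part of neighbouring cortical tissue in the punches was not tested beyond these values.

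Other cell types differed between the libraries as well. For the calls below, the rule called 2.93% of all tested genes higher and 2.41% lower in cocaine against saline. It called 3.96% and 3.37% in withdrawal against saline, and 0.47% and 0.548% in withdrawal against cocaine. Summed over 18 medium spiny neuron genes, the lanes held 2466 to 2572 RPKM in saline, 1893 to 1972 in cocaine and 2262 to 2284 in withdrawal, a sum that Penk and Ppp1r1b dominate. By gene, 15 of the 18 were lower and 3 higher in cocaine than in saline (median -0.24), and Ppp1r1b and Tac1 fell. Of all 14051 tested genes 7937 were lower and 6114 higher. In withdrawal against saline 9 of the 18 were higher and 9 lower (median 0.00058), and Pde10a rose. Of all tested genes 6094 were higher and 7957 lower there. Endothelial genes (6) summed to 47.0 to 48.1, 60.8 to 63.7 and 66.9 to 78.9 RPKM, with 3 and 5 called higher against saline. Septal and hypothalamic genes (6) summed to 296 to 320, 227 to 258 and 228 to 253 RPKM, with 2 (Pmch and Oxt) and 3 (also Avp) called lower. Pmch averaged 4.32 RPKM in saline, 0.879 in cocaine and 0.850 in withdrawal, so it passed the filter only through saline. All these called genes are in the length class of 42 to 748 bp, of which 10.8% and 9.08% were called lower against saline. Dlk1, a large part of the sum, differed from saline by 0.065 and 0.17, without a call. The lists of astrocyte, oligodendrocyte and microglia genes (6 each) had no call in any comparison. Interneuron genes had 1 called higher against saline (Nos1), choroid plexus genes had Ttr higher in cocaine against saline and lower in withdrawal against cocaine, and hippocampal and Cajal-Retzius genes had Prox1 higher in cocaine. Nos1, Pde10a and the endothelial gene Flt1, also called higher, are in the longest class of genes, from 10097 bp up. Tested genes of that class had medians of 0.30 and 0.28 against saline, and 14.1% and 16.1% of them were called higher. Drd3, a marker of the islands of Calleja, ranged from 1.26 to 2.81 RPKM in saline, 2.25 to 4.20 in cocaine and 5.24 to 6.71 in withdrawal and was called higher in withdrawal against both others. The part of these cell types and regions in the marker differences was not tested.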

How the data were processed

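Messenger RNA of pooled mouse nucleus accumbens was measured in 3 libraries of 3 lanes each (37 cycles from each end, inserts of about 200 bp, per the labels' protocols). The authors deposited RPKM per lane and merged per library, with lane totals of 5546362 to 12026754 per the file headers. The submitters' processing notes name Bowtie 0.12.7 and the build mm9. The read counter and annotation are not given in the sources used here. Groups and lane numbers came from the titles. The 12 lane and library files matched the series table exactly.

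Gene lengths and read numbers were recovered by finding the length at which value, lane total and length multiply to whole 37ths of a read (relative tolerance 1e-11). For 47 of the tested genes the length was multiplied by 37 because that came nearer to the reference. Reads are not whole, so no count test was run. Since it is not stated whether both mates were counted, no counting interval is given. The one exception is the limit of 3 reads for the Neurod1 lane at 0, which holds only if they were not. Calls used a pseudocount of 0.5 RPKM, a mean of at least 1 RPKM and a size of 1.5 times with lanes apart. Lanes are technical runs, so no p-value about treatment was computed. limma 3.58.1 in R 4.3.3 (trend, robust, Benjamini-Hochberg, adjusted p of 0.05) was an alternative that compares libraries, as were other pseudocounts, filters, size limits, scalings, merged values, a lane block and leaving out lanes. Both call rules were tested on simulated data.

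Named were all 9 markers, the called and the 4 most abundant genes of the related lists, and the 3 genes most like the highest and the called markers, except that some list genes are not reported here. The markers and lists were chosen with earlier results of these data known. Genes at 0.2 to 1 RPKM, Emx2os, Emx1, Penk, Isl1, Otof, Mdga1, Dlk1 and Drd3 were picked after their values were seen. E-boxes were searched in RefSeq windows of 250 bases, 1 per gene for the background.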

Additional observations from a re-analysis of the deposited data

How the results depend on the processing

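Of the 9 markers' differences under the alternatives, 335 kept their call or, without a call, stayed within the lane spread. A further 22 gained a call and 7 lost one, and 5 without a call moved by more than the lane spread. The sign of 7 turned, all of them without a call: Tbr1 (3 alternatives) and Mef2c (1) in cocaine against saline and Emx2 (3) between withdrawal and cocaine. Each NeuroD gene had only 2 alternatives per comparison, since the others keep the filter. For the summary counts and medians, 161 values stayed near the main one and 61 moved; no call changed sign.

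Against saline in cocaine, markers called went from 0 to 1 with no filter on low values, 2 at a size limit lower than 1.5 times, 2 with limma and 2 with no filter and a pseudocount of 0.1, which was chosen after seeing the data; the last moved their median to -0.36. At the lower size limit and with limma, the 2 markers were Nrgn, lower, and Cux2, higher. Counts of marker and list calls here take both directions together. Calls in the cortical list went from 1 lower to 9 at the lower size limit (5 higher and 4 lower) and 12 with limma (7 higher and 5 lower). Its median went from -0.027 to 0.038 with a filter of 5 RPKM, 0.020 with the median difference set to 0, 0.034 with 75th percentile scaling and 0.024 with length centring. Of all tested genes, the lower size limit called 9.78% higher and 12.1% lower in cocaine against saline, and limma 10.2% and 14.4%. In withdrawal against saline, markers called went from 2 to 1 with a pseudocount of 1, 1 with a filter of 5 RPKM, 0 at 2 times, 4 at the lower size limit, 0 with length centring and 5 with no filter and a pseudocount of 0.1. Their median went from -0.29 to -0.55 with no filter and -0.67 with no filter and a pseudocount of 0.1. Calls in the cortical list went from 2 to 1 with a filter of 5 RPKM, 1 at 2 times, 5 at the lower size limit, 4 with the median set to 0, 4 with 75th percentile scaling, 4 with merged values, 8 with limma and 4 with no filter and a pseudocount of 0.1. Its median went from -0.097 to 0.073 with the filter of 5 RPKM, -0.041 with the median set to 0, -0.027 with 75th percentile scaling and 0.0085 with length centring. Of all tested genes, the lower size limit called 11.1% higher and 15.2% lower, and the limit of 2 times 1.04% and 0.313%. A pseudocount of 1 called 3.17% and 2.58%, the filter of 5 RPKM 2.8% and 3.42%, and merged values 4.75% and 4.13%. Between withdrawal and cocaine, limma called 1 marker, and calls in the cortical list went from 0 to 2 at the lower size limit, 1 with no condition on lanes, 1 with merged values and 1 with limma. Its median went from -0.00075 to 0.051 with the filter of 5 RPKM and -0.052 with no filter and a pseudocount of 0.1. Of all tested genes, the lower size limit called 2.23% higher and 2.42% lower between withdrawal and cocaine. Without the condition on lanes 1.1% and 1.13% were called, and with merged values 1% and 1%. The causes were not tested.

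Leaving out each lane in turn gave, in the order cocaine against saline, withdrawal against saline and withdrawal against cocaine, 0 to 0, 1 to 2 and 0 to 2 markers called. Medians of the markers ran from -0.23 to -0.019, -0.45 to -0.21 and -0.27 to -0.20. The cortical list had 1 to 3, 2 to 5 and 0 to 2 calls, with medians from -0.041 to 0.022, -0.12 to 0.010 and -0.051 to 0.013. Of all tested genes 6.01% to 6.83%, 8.37% to 9.06% and 1.65% to 1.94% were called, beside 5.33%, 7.33% and 1.02% with all lanes.

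All-gene calls in cocaine against saline were 411 higher and 338 lower, 535 and 204 with 75th percentile scaling, 476 and 106 with length centring and 1429 and 2018 with limma. In withdrawal against saline they were 557 and 473, then 765 and 280, 588 and 177, and 1688 and 2551. Between withdrawal and cocaine they were 66 and 77, and 26 and 26 with limma.

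Lanes of different libraries share only a number: their deviations correlated at -0.051 to 0.076 for the same number and -0.064 to 0.044 for different numbers. With this replicate block limma called 2 markers in cocaine and 2 in withdrawal against saline, without Fezf2 (adjusted p = 0.051), and 1 between withdrawal and cocaine. In the cortical list the block gave 10, 9 and 1 calls.

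Depth limits the NeuroD genes most: Neurod6 had 26, 9 and 7 reads per library, and lanes with 1 read occur in withdrawal. Lane errors cover sequencing only, and differences between pools of mice cannot be estimated from 1 library per group.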
